A study of Mus musculus with 34 samples.

Results

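Lcn2, Orm1, Orm2, Orm3 and Serpina3n are 5 acute-phase genes, read here by gene name from the count files of all 34 libraries of a study of the glucocorticoid receptor, out of 55341 gene names listed there. They were chosen by name as secreted acute-phase proteins, with earlier results of these data known. The cells derive from the 3617 mouse mammary adenocarcinoma line, lack their own receptor through a knockout, and stably express a GFP-tagged mouse receptor in 1 of 5 forms, the WT form or one labelled D647V, D647V-tetra, Y551A or Y551A-Dim. The labels do not define the suffixes Dim and tetra. All 12 groups shared the knockout, the GFP tag, charcoal/dextran-treated serum and tetracycline at 5 µg/ml. A spike-in of 5% was also listed for every library. For 2 h the cells were given either 100 nM of the glucocorticoid drug dexamethasone (Dex) or ethanol alone (EtOH), and total RNA was sequenced after depletion of ribosomal RNA. The libraries form 2 sets. In set 1 each of 3 lines (WT, Y551A, Y551A-Dim) has 3 EtOH and 3 Dex libraries. In set 2 the same holds for D647V and D647V-tetra, while WT has 2 and 2. The labels give 1 line per receptor form, so the effect of a substitution and that of the line carrying it cannot be told apart. They also do not say whether replicates were separate cultures, so the p-values may measure technical spread only.

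Acute-phase proteins are secreted proteins whose blood levels change in inflammation, mostly through synthesis in the liver, and glucocorticoids are known to act on many of their genes together with inflammatory cytokines. The glucocorticoid receptor is a ligand-activated transcription factor that binds DNA directly at response elements made of 2 inverted arms, or through other factors. C/EBP, STAT and NF-kB factors are among the other regulators known at acute-phase genes. Lcn2 encodes lipocalin 2, a small protein that binds bacterial and mammalian siderophores and so withholds iron from bacteria. Orm1, Orm2 and Orm3 encode orosomucoids, also called alpha-1-acid glycoproteins, which are lipocalin-fold plasma proteins that carry lipophilic compounds. Serpina3n encodes a secreted serine protease inhibitor related to human antichymotrypsin.

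In mm10, Lcn2 lies on chromosome 2 from 32384633 to 32388252 on the minus strand, and Serpina3n on chromosome 12 from 104406729 to 104414329 on the plus strand. The orosomucoid genes form a cluster on chromosome 4, all on the plus strand, in the order Orm1 (63344560 to 63348163), Orm3 (63356162 to 63359511) and Orm2 (63362449 to 63365878), with 7999 bases between Orm1 and Orm3 and 2938 between Orm3 and Orm2. RefSeq promoter windows in build GRCm38.p6, from 250 bases before to 50 bases after the start, matched 4 of the 5 genes and not Orm1. The stretches printed here lie before the RefSeq start of each gene and are shown because 4 of the 5 genes rose with Dex in WT and Serpina3n was not called. They are written 5′ to 3′ on the gene's strand, and capitals mark matches to the C/EBP motif TTGCNNAA or to AGAACA, a single arm of a glucocorticoid response element. The Lcn2 stretch is chr2:32387798-32387989 on the minus strand, which lies inside the GENCODE span of Lcn2, and part of it is also a coding exon of the annotated transcript Lcn2-206. The Orm2 stretch is chr4:63362199-63362448 on the plus strand. The Orm3 stretch is chr4:63355908-63356068 on the plus strand. The Serpina3n stretch is chr12:104406458-104406645 on the plus strand.
Lcn2: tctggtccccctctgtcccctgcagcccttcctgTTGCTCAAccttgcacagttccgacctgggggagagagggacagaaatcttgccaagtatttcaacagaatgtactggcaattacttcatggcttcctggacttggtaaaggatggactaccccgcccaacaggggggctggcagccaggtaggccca
Orm2: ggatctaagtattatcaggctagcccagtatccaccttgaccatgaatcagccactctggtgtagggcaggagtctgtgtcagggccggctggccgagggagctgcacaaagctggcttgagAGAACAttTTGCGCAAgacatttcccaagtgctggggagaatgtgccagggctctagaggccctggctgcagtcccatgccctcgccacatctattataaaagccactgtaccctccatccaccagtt
Orm3: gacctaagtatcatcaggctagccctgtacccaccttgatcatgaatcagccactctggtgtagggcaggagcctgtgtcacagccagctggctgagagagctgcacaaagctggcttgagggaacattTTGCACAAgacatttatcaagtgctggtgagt
Serpina3n: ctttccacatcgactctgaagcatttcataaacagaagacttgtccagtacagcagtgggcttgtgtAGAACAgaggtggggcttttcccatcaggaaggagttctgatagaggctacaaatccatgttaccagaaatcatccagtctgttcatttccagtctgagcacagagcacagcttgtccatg

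Both strands of each window were searched. The C/EBP motif was found once in the windows of Lcn2, Orm2 and Orm3 and was not found in that of Serpina3n, against 10.8% of 32851 RefSeq promoter windows of the same length. AGAACA was found once in the windows of Orm2 and Serpina3n, against 19% of all windows. A full element, AGAACA and TGTTCT separated by any 3 bases, was found in none of the 4 windows and in 0.00913% of all. The STAT motif TTCNNNGAA was likewise in none of the 4 and in 8.3% of all. TATAAA was present near the start of Orm2 and Orm3, against 13.6% of all windows. The windows of Orm2 and Orm3 were 86.2% identical over their alignment. These matches describe the letters of short windows and do not show binding, and the windows leave out distal elements.

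The 3 orosomucoid transcripts are similar, so their counts were examined for shared sequence. Orm1 and Orm2 were 91% identical, Orm2 and Orm3 88%, and Orm1 and Orm3 86.1%. Of the 676 stretches of 100 bases in the Orm1 transcript, 47 (6.95%) also occur in Orm2, and none of the 674 of Orm3 occurs in another annotated transcript. For Serpina3n 4 of 1965 stretches also occur in relatives of its cluster, and for Lcn2 none of 816 in its main transcript. Reads that map to several places were not counted, per the file headers, so reads from those stretches are missing from both genes. Mismapping of a few reads from the abundant Orm3 to Orm1 or Orm2 cannot be told apart from expression of those genes, and their levels are given with that limit.

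The depth, labels and cell markers were checked first. Each library of set 1 held 44998213 to 70124595 counted reads, and each of set 2 held 60277930 to 79776573. Both mates of a pair were counted, so a single RNA fragment usually adds 2 reads, and the counting intervals below are narrower than the number of fragments warrants. Nr3c1, the receptor gene, ranged over the libraries from 234.4 to 380 CPM, the gene's reads scaled to a common library total, and its counts do not separate endogenous from introduced transcripts. The labelled cell type was checked with 8 mammary epithelial markers, whose summed level was 3.18 to 20.9 CPM and highest in Y551A. Krt14 had up to 1078 reads in a library, and Krt8, Krt19 and Krt7 at most 40, 39 and 42. Krt18, Krt5 and Cdh1 had at most 6, 6 and 4 reads, and Epcam was at 0 in every library. The 8 fibroblast markers summed to 1670 to 2790 CPM, a sum carried by Col1a2 with up to 209014 reads in a library, while Fap was at 0 in every library and Thy1, Lum and Dcn had at most 2, 6 and 10 reads. Markers of the cells best known for releasing these proteins were low. The 12 neutrophil markers summed to 0 to 0.638 CPM, with S100a9, Retnlg and Mmp8 at 0 in every library. The 10 hepatocyte markers summed to 1.62 to 3.73 CPM, with Ttr and Fgb at 0 and at most 2 reads of Alb in a library. The 6 adipocyte markers summed to 6.19 to 20.9 CPM and the 8 macrophage and leukocyte markers to 6.37 to 16.4 CPM. D647V EtOH replicate 1 stood more than 2-fold above both other libraries of its group in 101 of 12180 genes with a mean of at least 1 CPM, and without it the 4 called Dex responses of D647V stayed called, at 5.20 for Lcn2, 1.88 for Orm1, 2.16 for Orm2 and 2.74 for Orm3 in log2. In bulk RNA, a change in the number of expressing cells and a change in RNA per cell cannot be told apart.

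The first comparison asks what Dex does to these genes in each line. Lcn2 and Orm3 were called higher in all 6 Dex responses, Orm1 in 5 and Orm2 in 4. Serpina3n was called in 1, the Y551A-Dim response, where the call rests on single libraries. Orm1 in Y551A-Dim (1.62) and Orm2 in Y551A (1.41) and Y551A-Dim (1.18) were also higher in log2, but were not called. In edgeR's quasi-likelihood test, with p-values adjusted over all genes after Benjamini and Hochberg, 4 of the 5 members were higher in WT of set 1, where 2% of 16140 tested genes were called higher. In Y551A 3 of 5 were higher against 1.43% of genes, and in Y551A-Dim 3 of 5 against 0.898%. In set 2, with 17535 genes tested, 4 of 5 were higher in WT against 1.35% of genes, 4 of 5 in D647V against 0.804%, and 4 of 5 in D647V-tetra against 11.3%. None of the 5 fell by this test, by DESeq2 or at an unadjusted p under 0.05. The median change over the 5 members ran from 1.36 in Y551A-Dim to 4.29 in D647V-tetra on the log2 scale, while that over all tested genes lay between -0.013 and 0.002. The Y551A-Dim median is the Serpina3n value, which was 0.57 without Y551A-Dim Dex replicate 1. All 5 passed the low-count filter in each model. Passing it can itself depend on high Dex libraries, so these counts are a description.

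**Figure D1:**
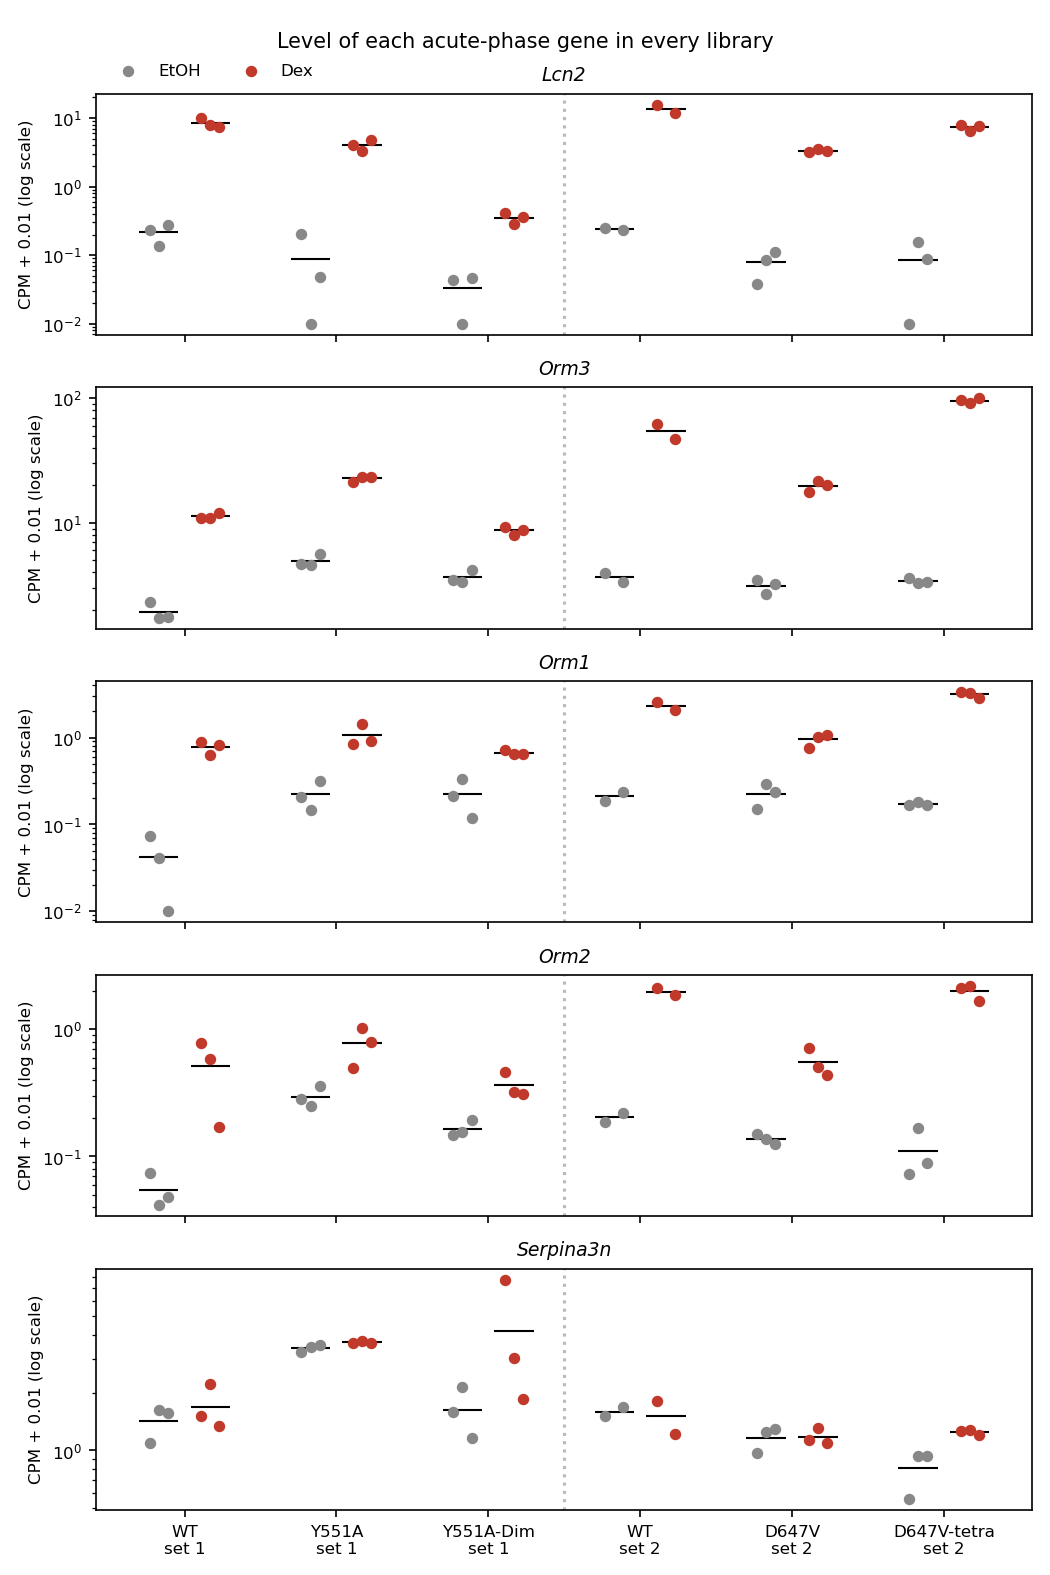
Level of the 5 acute-phase genes in each library, as CPM plus 0.01 on a log axis, by line and library set (dotted line between the sets). Grey points are EtOH libraries and red points Dex libraries, and bars are group means. The red points of Lcn2 and Orm3 lie above the grey points of the same line in all 6 columns, whereas those of Serpina3n overlap them in 4.

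Lcn2 was near zero without hormone and had the largest fold response of the 5 in every line. In WT of set 1 the EtOH libraries held 14, 8 and 14 Lcn2 reads (0.226, 0.126 and 0.266 CPM). The Dex libraries of that line held 490, 356 and 369 (9.88, 7.93 and 7.46 CPM). The groups did not overlap, and the change was 5.36 ± 0.32 on the log2 scale (SE, adjusted p = 1.52e-12), a 41.1-fold rise that ranked 6th of 16140 genes. In WT of set 2, 16 and 16 reads in EtOH stood against 1080 and 675 in Dex. That is 0.236 and 0.224 CPM against 15.7 and 11.6 CPM, a change of 5.88 ± 0.36 (adjusted p = 7.84e-09). The WT response of set 2 ranked 3rd of 17535 genes.

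In Y551A the EtOH libraries held 10, 0 and 2 Lcn2 reads and the Dex libraries 203, 151 and 228 (3.98, 3.34 and 4.74 CPM). The change was 5.71 ± 0.39 (adjusted p = 4.51e-11), and 7.62 without EtOH replicate 1 or 5.08 without EtOH replicate 2. The EtOH level rests on 12 reads in all. Y551A-Dim had the lowest Lcn2 level after Dex of the 3 lines of set 1. Its EtOH libraries held 2, 0 and 2 reads and its Dex libraries 23, 14 and 24 (0.4, 0.271 and 0.345 CPM). The groups did not overlap even so, and the change of 3.72 ± 0.66 was called (adjusted p = 0.00237). As a ratio of summed reads scaled to depth, 61 reads in Dex against 4 in EtOH gave 14.4-fold, with an exact interval of 5.33 to 54.4 that covers counting error only. With a prior count of 2 in the fit the change was 2.64.

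In D647V, 2, 6 and 8 Lcn2 reads in EtOH stood against 245, 268 and 221 in Dex (3.2, 3.58 and 3.25 CPM), a change of 5.55 ± 0.35 (adjusted p = 2.21e-08). D647V-tetra held 0, 10 and 6 reads in EtOH and 550, 432 and 577 in Dex (7.9, 6.35 and 7.72 CPM). Its change of 6.56 ± 0.35 ranked 2nd of 17535 genes. It was 7.37 without EtOH replicate 2, which held 10 of the 16 EtOH reads. With reads taken as independent, the 3 EtOH libraries with 0 Lcn2 reads allow up to 3 reads each. That is 0.0512 CPM in Y551A replicate 2, 0.0544 CPM in Y551A-Dim replicate 2 and 0.047 CPM in D647V-tetra replicate 1. Both mates of a fragment were counted, so these limits are too low. Each of the 6 responses of Lcn2 stayed called under every alternative run.

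The difference between Dex responses asks whether a receptor form changes the response itself. For Lcn2 none of the 7 differences was called by edgeR's quasi-likelihood test, none had an unadjusted p under 0.05, and their intervals were wide. Y551A minus WT was 0.35 (95% interval -0.98 to 1.68), and Y551A-Dim minus WT was -1.64 (-4.26 to 0.97). D647V minus WT was -0.33 (-1.82 to 1.15), and D647V-tetra minus WT was 0.68 (-0.63 to 1.98). These intervals do not show that the responses were alike.

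The Lcn2 level after Dex rests on more reads than its fold change. This contrast of the Dex libraries alone was added after the counts had been seen. Lcn2 after Dex was lower than in the WT of the set in all 4 mutant lines. The log2 difference was -1.07 ± 0.23 in Y551A (SE, adjusted p = 0.000508) and -4.62 ± 0.30 in Y551A-Dim (adjusted p = 5.54e-12). In set 2 it was -2.03 ± 0.24 in D647V (adjusted p = 4.24e-05) and -0.90 ± 0.23 in D647V-tetra (adjusted p = 0.0185). The D647V-tetra call was lost without its Dex replicate 2 (adjusted p = 0.0577), without its Dex replicate 3 (0.0506) or without WT Dex replicate 1 (0.173, difference -0.67). Between mutants, Y551A-Dim minus Y551A was -3.55 ± 0.30 (adjusted p = 1.12e-09), so the order in set 1 was WT, Y551A, Y551A-Dim, each called against the next. D647V-tetra stood 1.13 ± 0.22 above D647V (adjusted p = 0.00976), so the order in set 2 was WT, D647V-tetra, D647V. That last call was lost on leaving out D647V Dex replicate 3 or D647V-tetra Dex replicate 1 or 3, at adjusted p of 0.0509, 0.0589 and 0.0506.

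Orm3 was the orosomucoid with most reads, and it had 91 or more reads in every library. In WT of set 1 it stood at 2.31, 1.73 and 1.73 CPM in EtOH and 10.9, 10.9 and 12 CPM in Dex. The groups were far apart, with a change of 2.55 ± 0.11 (SE, adjusted p = 3.18e-15). In Y551A, EtOH libraries stood at 4.67, 4.59 and 5.61 CPM and Dex libraries at 21.4, 23.3 and 23.5 CPM, a change of 2.20 ± 0.10 (adjusted p = 5.07e-15). Y551A-Dim gave the smallest Orm3 response, from 3.47, 3.35 and 4.21 CPM to 9.29, 8 and 8.77 CPM. Its change of 1.24 ± 0.11 was called (adjusted p = 1.36e-08) and the 2 groups did not overlap.

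In set 2 Orm3 rose in all 3 lines. WT rose from 3.98 and 3.36 CPM to 61.8 and 47.4 CPM, a change of 3.90 ± 0.14 (adjusted p = 4.58e-12). D647V rose from 3.48, 2.69 and 3.22 CPM to 17.7, 21.6 and 20.1 CPM, a change of 2.66 ± 0.11. D647V-tetra rose from 3.59, 3.28 and 3.31 CPM to 96, 91.1 and 99.6 CPM, a change of 4.82 ± 0.12 that was the largest Orm3 response of the 6. The EtOH levels of the 3 lines of set 2 overlapped, while their Dex levels did not, with D647V below WT and WT below D647V-tetra.

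**Figure D2:**
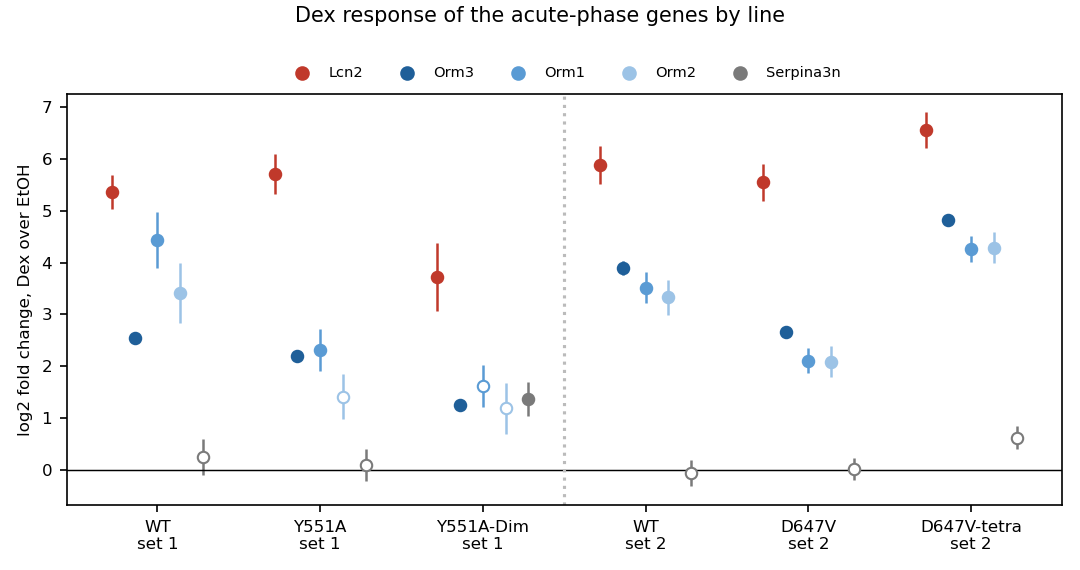
Dex response of each gene by line, as log2 fold change of Dex over EtOH with its SE (bars). Filled points passed an adjusted p of 0.05 and open points did not. Orm3 runs from 1.24 in Y551A-Dim to 4.82 in D647V-tetra, and Serpina3n lies between -0.07 and 0.24 in the 4 responses other than Y551A-Dim and D647V-tetra.

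The size of the Orm3 response differed between lines by edgeR's quasi-likelihood test of the difference. Y551A-Dim responded less than WT, by -1.30 ± 0.16 (adjusted p = 3.4e-06), and less than Y551A, by -0.96 ± 0.15 (adjusted p = 0.000238). Y551A minus WT was -0.35 ± 0.15 and was not called (adjusted p = 0.75, 95% interval -0.68 to -0.01). D647V responded less than WT, by -1.23 ± 0.18 (adjusted p = 0.00257). D647V-tetra responded more than WT, by 0.92 ± 0.18 (adjusted p = 0.00841), and more than D647V, by 2.15 ± 0.16 (adjusted p = 1.21e-06). Without WT Dex replicate 2 the D647V-tetra difference from WT was 0.74 and was no longer called (adjusted p = 0.055).

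Counting all members, 0 of 5 differed for Y551A minus WT, where 0.18% of genes were called in either direction. DESeq2 called 0 of 5 there and 62 genes in all, and 3 of 5 had an unadjusted p under 0.05, as did 6.31% of all genes. For Y551A-Dim minus WT 2 of 5 differed against 1.47% of genes, and for Y551A-Dim minus Y551A 1 of 5 against 0.558%. For D647V minus WT 1 of 5 differed against 0.188%, for D647V-tetra minus WT 1 of 5 against 4.41%, and for D647V-tetra minus D647V 3 of 5 against 0.873%. Comparisons that share WT libraries are not independent of each other.

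WT was the one line present in both sets, and its Orm3 response was larger in set 2. The difference was 1.34 ± 0.19 (adjusted p = 0.0145), and Orm3 was 1 of the 3 genes called among 16540 in this comparison (0.0181%, 1 of 5 members). The call was lost without set 1 Dex replicate 1, Dex replicate 2 or EtOH replicate 1, with differences of 1.32, 1.32 and 1.18. Lcn2 differed by 0.50 ± 0.43 between the sets and was not called (adjusted p = 0.848). The labels do not assign kits to libraries, so library set and kit cannot be told apart, and mutants of different sets were therefore set only against the WT of their own set.

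Orm1 and Orm2 had far fewer reads than Orm3. Orm1 supplied 0 to 9.02% of the orosomucoid reads of a library and Orm2 1.25 to 6.11%. As a median, both together made up 8.16% of orosomucoid reads in EtOH libraries and 7.49% in Dex libraries. Levels per kilobase of counted exons, which are alike in length for the 3 orosomucoids, gave the same order in WT after Dex in set 1. They were 14.6 ± 0.81 CPM per kb for Orm3, 0.997 ± 0.17 for Orm1 and 0.648 ± 0.40 for Orm2 (SD, n = 3). Serpina3n stood at 0.816 ± 0.22 CPM per kb there. Lcn2 stood at 3.21 ± 0.49, over a counted length of 2623 bases that includes retained introns. Its main transcript has 915 bases, so the Lcn2 value is understated and is not compared with the others.

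**Figure D3:**
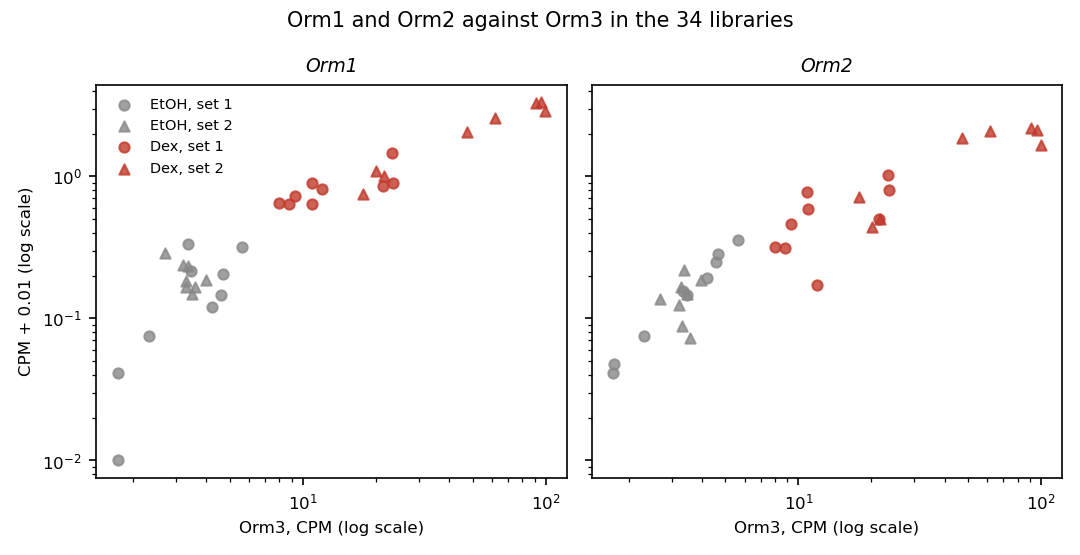
Orm1 (left) and Orm2 (right) against Orm3 in the 34 libraries, all in CPM on log axes, with 0.01 added on the vertical axis. Circles are set 1, triangles set 2, grey EtOH and red Dex. Both minor genes lie along a band that climbs with Orm3, and the scatter is widest at the few reads of the EtOH libraries.

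In WT of set 1, Orm1 held 4, 2 and 0 reads in EtOH and 44, 28 and 40 in Dex (0.887, 0.624 and 0.808 CPM). The groups did not overlap and the change was 4.44 ± 0.55 (adjusted p = 1.82e-06), or 3.53 with a prior count of 2. Without EtOH replicate 1, which held 4 of the 6 EtOH reads, it was 5.33. EtOH replicate 3, with 0 Orm1 reads, allows up to 0.057 CPM with reads taken as independent, a limit too low for counted mates. Orm2 held 4, 2 and 2 reads in EtOH and 38, 26 and 8 in Dex, a change of 3.42 ± 0.58 (adjusted p = 0.000235), or 2.72 with a prior count of 2. One Dex library, replicate 3, was low for Orm2, at 0.162 CPM against 0.766 and 0.579 in the others.

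In the mutants of set 1 the fitted changes of Orm1 and Orm2 ran from 1.18 to 2.31. In Y551A, Orm1 went from 10, 8 and 16 reads to 43, 65 and 43, a called change of 2.31 ± 0.41 (adjusted p = 0.000729). Orm2 went from 14, 14 and 18 reads to 25, 46 and 38. Its groups did not overlap, but the change of 1.41 ± 0.44 was not called (adjusted p = 0.137). In Y551A-Dim, Orm1 went from 12, 18 and 6 reads to 41, 33 and 44, a change of 1.62 ± 0.41 that was not called (adjusted p = 0.0516). It was called with RLE scaling (0.0465), with no low-count filter (0.00636), and on leaving out Y551A-Dim Dex replicate 3 (0.0362) or EtOH replicate 2 (0.0437). Orm2 went from 8, 8 and 10 reads to 26, 16 and 21, a change of 1.18 ± 0.49 that was not called (adjusted p = 0.332).

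The Orm1 response was smaller in Y551A-Dim than in WT by -2.82 ± 0.73 (adjusted p = 0.0483). This call did not hold with only the lines compared (adjusted p = 0.0734), with the replicate block (0.071) or under 9 of the 12 fits that left out 1 library of these groups. The value rests on the 6 Orm1 reads of WT in EtOH. It was -3.71 without WT EtOH replicate 1 and -2.05 with a prior count of 2. For Orm2 the same difference was -2.24 ± 0.79 and was not called (adjusted p = 0.254).

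In set 2 both minor genes rose in all 3 lines. In WT, Orm1 went from 12 and 16 reads to 178 and 119, a change of 3.52 ± 0.30, and Orm2 from 12 and 15 to 144 and 107, a change of 3.33 ± 0.34. In D647V, Orm1 went from 10, 22 and 18 reads to 57, 75 and 73, a change of 2.10 ± 0.24, and Orm2 from 10, 10 and 9 to 54, 37 and 29, a change of 2.09 ± 0.30. In D647V-tetra, Orm1 went from 10, 12 and 12 reads to 230, 221 and 214, a change of 4.26 ± 0.25, and Orm2 from 4, 11 and 6 to 147, 148 and 124, a change of 4.29 ± 0.30. The Dex and EtOH libraries did not overlap in any of these, but groups of 2 or 3 libraries make that a weak criterion. Serpina3n in Y551A did not overlap either, at a change of 0.09. The share of all genes without overlap was not computed.

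D647V-tetra responded more than D647V by 2.16 ± 0.36 for Orm1 (adjusted p = 0.00722) and by 2.20 ± 0.45 for Orm2 (adjusted p = 0.0319), next to 2.15 for Orm3. The Orm1 call was lost without D647V EtOH replicate 2 (1.91, adjusted p = 0.0504). The Orm2 call was lost with only the lines compared (adjusted p = 0.0512) and on leaving out 8 of the 12 libraries of these groups, at adjusted p of 0.0502 to 0.111.

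Serpina3n was expressed in EtOH in every line and showed no called change with Dex in 5 of the 6 responses. In WT of set 1 it stood at 1.08, 1.62 and 1.56 CPM in EtOH and 1.51, 2.21 and 1.33 CPM in Dex, and the groups overlapped. The change was 0.24 ± 0.35 (adjusted p = 0.9, 95% interval -0.52 to 1.01). In Y551A it stood at 3.26, 3.44 and 3.56 CPM in EtOH and 3.63, 3.7 and 3.63 CPM in Dex, a change of 0.09 ± 0.31. In set 2 the change was -0.07 ± 0.26 in WT, 0.01 ± 0.21 in D647V and 0.61 ± 0.22 in D647V-tetra, which was not called (adjusted p = 0.0596). D647V-tetra went from 0.548, 0.931 and 0.929 CPM to 1.25, 1.27 and 1.19 CPM, without overlap. It was called with DESeq2 (0.0386), with a mean count of at least 50 (0.0447) and without D647V-tetra EtOH replicate 2 (0.0461).

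The call for Serpina3n in Y551A-Dim rests on single libraries. Its EtOH libraries stood at 1.57, 2.14 and 1.16 CPM and its Dex libraries at 7.73, 3.02 and 1.86 CPM, and the groups overlapped. The change of 1.36 ± 0.32 (adjusted p = 0.0322) was 0.57 without Dex replicate 1 (adjusted p = 0.757). It was also not called with only the lines compared (0.339), without EtOH replicate 1 (0.143) or without EtOH replicate 3 (0.164). Dex replicate 1 stood more than 2-fold above both other libraries of its group in 11 of 12005 genes with a mean of at least 1 CPM, and Dex replicate 2 in 43. The 11 genes include Serpina3n, Hmox1 (311, 87.8 and 38.4 CPM by total count) and the macrophage marker Cd68 (9.39, 3.5 and 2.72). Lyz2, another macrophage marker, stood at 6.58, 6.75 and 6.37 in the same libraries, and the summed macrophage list at 9.17 to 16.4 CPM against 7.69 to 8.87 in EtOH. The Serpina3n response of Y551A-Dim minus that of WT was 1.12 ± 0.48 and not called (adjusted p = 0.434), though it was called with no low-count filter (0.00181) and without Y551A-Dim Dex replicate 3 (0.0369). Without Y551A-Dim Dex replicate 1 it was 0.33. The part of other cells or of the state of that library in the Serpina3n value was not tested.

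Levels in EtOH ask how far the lines already differed without hormone. Orm1 and Orm3 were higher in Y551A and Y551A-Dim than in WT, and Lcn2 was lower in Y551A-Dim. In Y551A 4 of 5 members were higher than in WT, in a comparison where 42.5% of genes were called in either direction. Orm3 was 1.36 ± 0.12 higher (adjusted p = 7.22e-10), Orm1 2.58 ± 0.63 (adjusted p = 0.00157), Orm2 2.61 ± 0.61 (adjusted p = 0.000913) and Serpina3n 1.27 ± 0.33 (adjusted p = 0.00249). The Orm1 value was 3.49 without WT EtOH replicate 1, and with a prior count of 2 the values were 1.82 for Orm1 and 1.98 for Orm2. Lcn2 was at -1.42 ± 0.58 and not called (adjusted p = 0.0525), though it was called with DESeq2 (0.0141), with no low-count filter (0.0143), with the replicate block (0.0418) and without WT EtOH replicate 2 (0.0346) or Y551A EtOH replicate 1 (-3.33, adjusted p = 0.000957). Without Y551A EtOH replicate 2 it was -0.79 (adjusted p = 0.268).

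In Y551A-Dim 3 of 5 members differed from WT in EtOH, against 23.3% of genes. Orm3 was 0.93 ± 0.13 and Orm1 2.60 ± 0.63 higher, and Lcn2 was lower by -2.98 ± 0.73 (adjusted p = 0.00402), on 4 reads against 36. Orm2 was at 1.74 ± 0.65 and not called (adjusted p = 0.0554), but was called with DESeq2 (0.0437). With a prior count of 2 Lcn2 was at -1.98 and Orm1 at 1.84, and without WT EtOH replicate 1 Orm1 was at 3.49. Between Y551A-Dim and Y551A 2 of 5 differed against 29% of genes, Orm3 at -0.43 ± 0.11 and Serpina3n at -1.08 ± 0.33. The Serpina3n call was lost without Y551A-Dim EtOH replicate 3 (adjusted p = 0.0772).

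In set 2 fewer members were called in EtOH. None of the 5 members differed between D647V and WT by edgeR's quasi-likelihood test, against 7.36% of genes, and none between D647V-tetra and D647V, against 4.53%. At an unadjusted p under 0.05, 1 of 5 did so in each, beside 20.1% and 21.7% of all genes, and DESeq2 called 1 of 5 among 1642 genes and 0 of 5 among 1444. Lcn2 was at -1.70 ± 0.54 in D647V (adjusted p = 0.0685) and at -1.58 ± 0.54 in D647V-tetra against WT (adjusted p = 0.0516), each called with DESeq2 (0.00424 and 0.00472) and with no low-count filter. Without its EtOH replicate 2, D647V-tetra was at -2.38 (adjusted p = 0.0128), and without its EtOH replicate 1 at -1.05 (adjusted p = 0.104). D647V-tetra differed from WT in 1 of 5 members, Serpina3n at -0.97 ± 0.24 (adjusted p = 0.00871), against 18.7% of genes. That call was lost without WT EtOH replicate 2 (adjusted p = 0.0852).

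**Figure D4:**
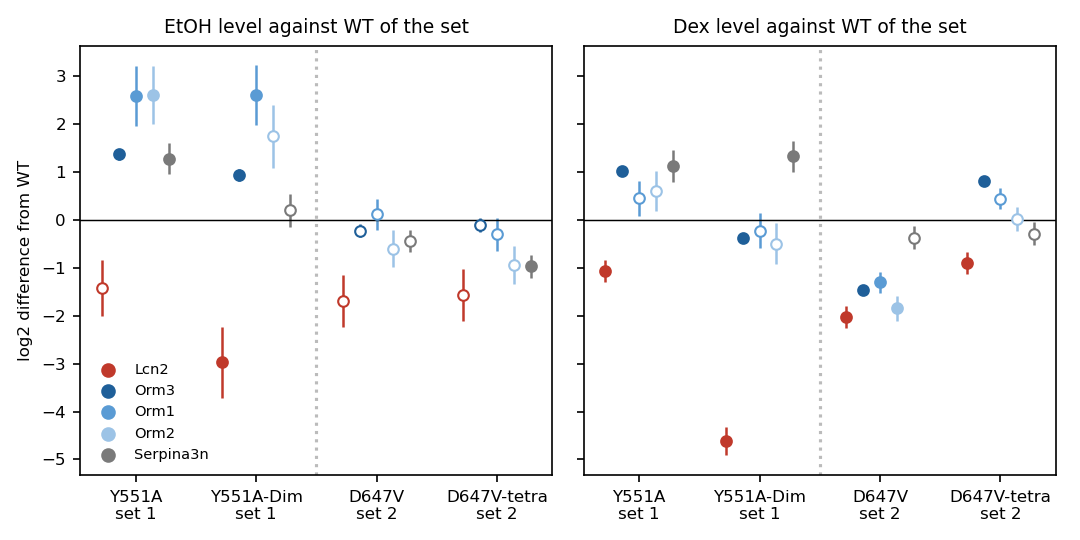
Difference of each mutant line from the WT of its set in log2, in EtOH (left) and after Dex (right), with SE bars. Filled points passed an adjusted p of 0.05. After Dex, Lcn2 is below 0 in all 4 lines, while Orm3 is above 0 in Y551A (1.01) and D647V-tetra (0.81) and below it in Y551A-Dim and D647V.

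After Dex, Lcn2 and Orm3 went in opposite directions against WT in 2 lines. In Y551A, where Lcn2 was lower, Orm3 was 1.01 ± 0.09 higher than in WT (adjusted p = 1.28e-09). In D647V-tetra, Orm3 was 0.81 ± 0.11 higher (adjusted p = 8.24e-05) beside the lower Lcn2. In the other 2 lines both were lower, Orm3 at -0.37 ± 0.10 in Y551A-Dim (adjusted p = 0.00475) and at -1.46 ± 0.10 in D647V (adjusted p = 1.51e-07). In D647V, Orm1 and Orm2 were lower as well, at -1.30 ± 0.22 and -1.85 ± 0.26. Orm1 and Orm2 were called against WT in no other line, and in D647V-tetra they stood at 0.44 ± 0.22 and 0.01 ± 0.25.

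The same reads can also be given as a ratio within single libraries, which adds no separate evidence to the levels. Per 100 Orm3 reads, the Dex libraries of WT in set 1 held 90.7, 72.7 and 62.2 Lcn2 reads. Those of Y551A held 18.6, 14.3 and 20.1, and those of Y551A-Dim 4.31, 3.39 and 3.93. In set 2, WT held 25.3 and 24.6, D647V 18, 16.5 and 16.2, and D647V-tetra 8.23, 6.97 and 7.75. These Dex ranges of the lines did not overlap within a set, and how often other gene pairs do the same was not computed. The lines already differed in EtOH, on few Lcn2 reads. In set 1 WT held 7.27 to 15.4, Y551A 0 to 4.18 and Y551A-Dim 0 to 0.985. In set 2 WT held 5.93 to 6.67, D647V 0.8 to 3.16 and D647V-tetra 0 to 4.37. The ratio was chosen after the levels had been seen and has no test of its own.

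By members called in the Dex level, Y551A differed from WT in 3 of 5 (41.1% of genes), Y551A-Dim from WT in 3 (26%) and Y551A-Dim from Y551A in 2 (25.5%). D647V differed from WT in 4 (9.42%), D647V-tetra from WT in 2 (12.4%) and D647V-tetra from D647V in 4 (1.87%). D647V-tetra stood above D647V by 2.27 ± 0.10 for Orm3, 1.74 ± 0.20 for Orm1 and 1.86 ± 0.24 for Orm2. Y551A-Dim minus Y551A was -1.39 ± 0.09 for Orm3. Serpina3n was 1.12 ± 0.33 higher in Y551A than in WT after Dex and 1.32 ± 0.33 higher in Y551A-Dim, the latter 0.53 and not called without Y551A-Dim Dex replicate 1 (adjusted p = 0.122).

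Other acute-phase genes responded in part. Of 35 further acute-phase proteins, 10 passed the low-count filter, and in WT of set 1 3 rose and 1 fell, with a median of -0.04 beside -0.013 over all genes. Among them Mt1, a metallothionein, rose by 1.27 ± 0.13 and Cp, the copper carrier ceruloplasmin, by 0.41 ± 0.05, while the pentraxin Ptx3 fell by 0.34 ± 0.08. Cp rose in all 6 responses, by 0.36 to 0.66. In Y551A-Dim, Mt1 was at 0.38 ± 0.13 and not called (adjusted p = 0.186). The number higher in the other responses was 3 in Y551A, 2 in Y551A-Dim and 3 each in WT of set 2, D647V and D647V-tetra, and 3 were lower in D647V-tetra, Ptx3, Cd14 and Timp1. Of all tested genes, 2% were called higher in WT of set 1, 1.43% in Y551A and 0.898% in Y551A-Dim. In set 2 the shares were 1.35% in WT, 0.804% in D647V and 11.3% in D647V-tetra. The shares called lower are not given here. In either direction, 34.4% of genes in D647V-tetra and 11% in WT of set 1 had an unadjusted p under 0.05 by edgeR's quasi-likelihood test. The falls are therefore not read as particular to this list. Saa1, Saa2 and Hp, the classic hepatic acute-phase genes, were at 0 in every library.

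Among 30 genes of acute-phase signalling, 22 were tested in set 1 and 23 in set 2. In WT of set 1 4 rose and none fell, with a median of -0.04. Il6ra, a receptor chain for interleukin 6, rose by 0.99 ± 0.07, the transcription factors Cebpb by 0.88 ± 0.06 and Cebpd by 0.67 ± 0.13, and Pias3, an inhibitor of STAT3, by 0.40 ± 0.08. Il6ra rose in all 6 responses, by 0.59 in Y551A-Dim to 1.72 in D647V-tetra. Cebpb and Cebpd rose in WT of both sets and in Y551A, and were called in none of the other lines, at 0.13 and 0.26 in Y551A-Dim, 0.20 and 0.37 in D647V, and 0.36 and 0.18 in D647V-tetra. The other responses held 4 higher genes in Y551A, 2 in Y551A-Dim, 3 in WT of set 2, 1 in D647V and 7 in D647V-tetra, with none lower. Of all tested genes, 0.804% were called higher in D647V and 11.3% in D647V-tetra.

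Of 14 genes for Lcn2 receptors, siderophore and iron handling, 10 were tested in set 1 and 11 in set 2, and none changed in WT of either set. Slc22a17, an Lcn2 receptor, had at most 2 reads in a library and Lrp2, the other, at most 21. Hmox1, the heme-degrading enzyme, rose by 1.99 ± 0.37 in Y551A-Dim, whose Dex libraries are given beside Serpina3n. In D647V-tetra Ireb2, an iron-sensing regulator, rose by 0.56 ± 0.11 and Hmox1 fell by 0.39 ± 0.09. Of 18 further lipocalins 2 were tested in set 1, and none changed there. Ptgds, a lipocalin that makes prostaglandin D, rose in set 2 in WT (2.21 ± 0.44) and D647V-tetra (1.75 ± 0.38). None of 10 other genes of the Serpina3 cluster passed the filter. Of 6 proteases listed as targets of Serpina3n, Ctsb alone was tested, and it was called in Y551A-Dim, where it rose by 0.20 ± 0.05, and in none of the other 5 responses. In the 6 marker lists, Pparg of the adipocyte list fell by 0.46 ± 0.09 in WT of set 1 and by 0.66 ± 0.10 in D647V-tetra. S100a8 of the neutrophil list rose in WT of set 2 (3.75 ± 0.89, adjusted p = 0.0371) on at most 31 reads in a library. No other marker gene was called in the 6 responses.

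Genes whose levels ran most like a member over the 18 libraries of set 1 were named by Pearson's r of log2 CPM, as a description. The libraries share groups, so r is mostly a statement about group means. Lcn2 ran with Errfi1 (0.973, and 0.953 over the 16 libraries of set 2), Ccn2 (0.972, 0.867), Ampd3 (0.956, 0.955), Glrx (0.952, 0.938) and Tsc22d3 (0.951, 0.948). With a prior count of 0.5 in log2 CPM, 3 of these 5 were still among the 5 most like Lcn2. The 5 genes most like Orm3 were Adgra1 (0.969, 0.891), Per2 (0.959, 0.879), Epn2 (0.959, 0.924), Fstl3 (0.956, 0.808) and Cd24a (0.94, 0.878). Orm3 was the gene most like both Orm1 and Orm2, at 0.926 and 0.9 in set 1 and 0.985 and 0.968 in set 2. After Orm3, the 4 most like Orm1 were Gclc (0.923, 0.723), Adgra1 (0.909, 0.874), Fbxo34 (0.907, 0.876) and Fstl3 (0.905, 0.829). For Orm2 they were Epn2 (0.898, 0.96), Fstl3 (0.896, 0.843), Adgra1 (0.893, 0.825) and Fam129a (0.891, 0.872). Lcn2 and Orm3 correlated at 0.738 in set 1 and 0.939 in set 2. Serpina3n ran with Sord (0.934, 0.339), Gstm1 (0.926, 0.534), Yipf3 (0.903, -0.116), Adssl1 (0.901, 0.042) and Notch3 (0.893, 0.781), of which 4 had a correlation below 0.6 in set 2.

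Genes beside the members were examined in WT. Within 100 kb of Lcn2, 8 neighbours were tested and none was called in WT of either set, including Ciz1 at 3663 bases (-0.09 ± 0.05 in set 1). Around the orosomucoid cluster, Col27a1 was at 1.44 ± 0.68 (adjusted p = 0.427) and Akna at -0.16 ± 0.22 in set 1, and neither was called in set 2. No neighbour of Serpina3n within 100 kb passed the filter.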

How the data were processed

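Per the submitters' processing notes, bcl2fastq 2.17, cutadapt and STAR were used. Per the file headers, the authors' deposited counts come from featureCounts 2.0.3 with GENCODE vM21 on mm10, reverse-stranded, with mates counted separately and reads that map or overlap more than once left out. Of 34 libraries, 18 form set 1 and 16, all marked as resent in their headers, set 2. The kits were not assigned to libraries in the labels, so kit and line cannot be told apart. The listed spike-in was not used to scale the counts. Counts were tested in R 4.3.3 with edgeR 4.0.16 (TMM scaling, filterByExpr, quasi-likelihood test) in 1 model per set and 1 for WT of both, and p-values were Benjamini-Hochberg adjusted over all genes at 0.05. SE is the log2 change over the root of F, and for genes with few reads it and the intervals built on it move with the prior count. Alternatives were DESeq2 1.42.0, RLE scaling, other filters, other subsets, a replicate block and leaving out each library. A prior count of 2 and the 6 comparisons of Dex levels were added after seeing the data. On simulated counts for the 2 WT responses and their difference, the test recovered 99 to 100 of 100 genes changed by log2 1, with 10 to 19 false calls. The changed genes were drawn from those with higher mean counts, with 1 fixed spread for all genes. Recovery at the few EtOH reads of Lcn2, Orm1 and Orm2 was therefore not measured. The other comparisons were not simulated. Neighbouring genes were taken within 100 kb. The members and lists were chosen with earlier results of these data known. Genes named beside the members came from those lists, from the 5 most alike genes by Pearson's r, or from library checks; Cd14, Timp1 and the genes that set a library apart were named after their values were seen. Sequence identity was computed with Biopython 1.88. The values of 1 further gene of these lists are not reported here.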

Additional observations from a re-analysis of the deposited data

Results flagged for a closer look

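Differences between receptor lines, or between library sets, in the Dex response passed an adjusted p of 0.05 by edgeR's quasi-likelihood test of the difference for 9 pairs of gene and comparison. Orm3 accounts for 6 of them. In log2, its response in Y551A-Dim differed from that in WT by -1.303 and from that in Y551A by -0.956. Its response in D647V differed from that in WT by -1.233. D647V-tetra differed from WT by 0.92 and from D647V by 2.153. In WT, the Orm3 response differed between set 2 and set 1 by 1.338. Orm1 differed between Y551A-Dim and WT by -2.822 and between D647V-tetra and D647V by 2.16. Orm2 differed between D647V-tetra and D647V by 2.199. Lcn2 and Serpina3n were in none of these pairs. No group had enough libraries for a check of single outlying values.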

How the results depend on the processing

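Over the alternatives run, counts of called members kept within 1.5 times the main count in 322 cases and moved in 32. Single-gene results kept direction and call in 1640 cases, lost the call in 38, gained it in 27 and changed sign in 35. With a mean count of at least 50, which left Orm1 and Orm2 untested in set 1, the members called were 2 in place of 4 for the Dex response of WT in set 1, 1 in place of 2 for the response of Y551A-Dim minus WT, 2 in place of 4 for the EtOH level of Y551A minus WT, and 2 in place of 1 for that of D647V-tetra minus WT. Fitting only the lines compared, or adding the replicate block, left 1 member for the response of Y551A-Dim minus WT. No low-count filter gave 2 in place of 1 for the response of Y551A-Dim minus Y551A, and 1 in place of 0 for the EtOH level of D647V minus WT and 2 for D647V-tetra minus WT. DESeq2 gave 1 and 2 for these EtOH levels, and only the lines compared gave 1 for D647V minus WT. DESeq2 called 1642 and 3799 genes in all for these 2 levels, where the main test called 1290 and 3277. All-gene numbers under the other settings are not given here, so these counts describe the settings and not the members. Signs changed for Orm1 in EtOH, Y551A-Dim minus Y551A, under the replicate block (-0.007, main 0.017). They also changed for Orm2 in the response of WT set 2 minus set 1 with a prior count of 2 (0.348, main -0.107), and Orm2 after Dex in D647V-tetra minus WT was 0 with only the lines compared. The cause was not tested. None of these single-gene values was called.

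Leaving out 1 library at a time gave ranges that crossed 0 for results not called. In EtOH, Lcn2 ran from -0.688 to 0.647 for D647V-tetra minus D647V and from -2.185 to 0.355 for Y551A-Dim minus Y551A. Orm1 ran from -0.127 to 0.337 for D647V minus WT and from -0.421 to 0.373 for Y551A-Dim minus Y551A, Orm3 from -0.22 to 0.017 for D647V-tetra minus WT, and Serpina3n from -0.033 to 0.386 for Y551A-Dim minus WT. After Dex, Orm2 ran from -0.073 to 0.125 and Serpina3n from -0.551 to 0.033 for D647V-tetra minus WT, and Serpina3n from -0.597 to 0.553 for Y551A-Dim minus Y551A. Responses of Serpina3n ran from -0.105 to 0.092 in D647V and from -0.392 to 0.19 in WT of set 2. Differences of response ran, for Lcn2, from -0.678 to 0.05 (D647V minus WT) and from -0.277 to 2.264 (Y551A minus WT), for Orm2, from -0.534 to 0.349 (WT set 2 minus set 1) and from -0.471 to 0.031 (Y551A-Dim minus Y551A), and for Serpina3n, from -0.179 to 0.402 (D647V minus WT) and from -0.295 to 0.081 (Y551A minus WT). The members called ran from 1 to 2 for the Dex level of D647V-tetra minus WT, 0 to 3 for its EtOH level, and 1 to 2 for the EtOH level of Y551A-Dim minus Y551A. For differences of response they ran from 1 to 3 (D647V-tetra minus D647V), 0 to 1 (D647V-tetra minus WT), 0 to 1 (WT set 2 minus set 1), 1 to 2 (Y551A-Dim minus WT) and 1 to 2 (Y551A-Dim minus Y551A).

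Replicate numbers showed no sign of pairing the samples, which so few libraries cannot settle. Deviations of same-numbered libraries correlated at -0.15 to 0.098 in set 1 and -0.245 to 0.243 in set 2. Those of differently numbered libraries correlated at -0.126 to 0.209 and -0.245 to 0.254. The replicate block is therefore not read as a paired test. Depth limits Lcn2, Orm1 and Orm2 in EtOH, where single libraries held 0 to 22 reads, and the differences of their responses had SEs of 0.36 to 1.26 in log2.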
